A study of Mus musculus with 8 samples.

Results

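Prostanoids and leukotrienes are lipid mediators made from arachidonic acid, and the 10 genes described here encode enzymes that make or break them down, together with the protein that hands arachidonic acid to 5-lipoxygenase. The members were chosen by gene symbol from a table of 41018 mouse genes, by a list that was drawn up with earlier results of these data in view, and all 10 were found in it. They comprised the cyclooxygenases Ptgs1 and Ptgs2, the prostanoid synthases Ptges, Hpgds and Tbxas1, the prostaglandin dehydrogenase Hpgd, the leukotriene genes Alox5, Alox5ap and Lta4h, and a further lipoxygenase, Alox15.

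RNA came from the bone marrow (BM) of female C57BL/6 mice aged 5 to 8 weeks. The cells had been washed out of the leg bones and captured on magnetic beads by CD11b, an integrin chain of neutrophils, monocytes, macrophages and eosinophils. PC-EV-educated mice gave 4 samples, and PBS mice gave 4 more. The PC-EV-educated mice received 5 µg of extracellular vesicles (EVs) of PAN02 cells, a single mouse pancreatic adenocarcinoma line, into the retro-orbital sinus 3 times per week for 3 weeks, and the PBS mice received PBS by the same route. The mice were anesthetized with isoflurane. Beyond this no further treatment and no allele is named for either group, and the number of mice behind each sequenced library was not found in the labels or methods. For PCR on such cells the study used pools of several mice, and whether the libraries came from pools too is not said.

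The value analysed was the Max group mean, which is the larger of the PC-EV-educated and the PBS mean of normalized expression for each gene. It is termed the level below and is the authors' pooled value, so it carries no spread between samples. It does not say which of the groups was the larger, so no value here shows whether the groups differed or in which direction. No comparison of PC-EV-educated with PBS mice was made. The levels of different genes may come from different groups. A difference between genes could therefore not be tested, and neighbours in an order of levels are given as values alone.

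Cyclooxygenase turns arachidonic acid into an unstable endoperoxide, from which separate synthases make PGE2, PGD2, thromboxane and other prostanoids, and a dehydrogenase then inactivates the prostaglandins. In the other branch, 5-lipoxygenase with its activating protein makes leukotriene A4, which a hydrolase converts to leukotriene B4, an attractant of neutrophils. Neutrophils are a classical source of leukotriene B4, and macrophages of prostanoids.

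As deposited, the leukotriene genes had the highest levels of the 10 and the terminal prostanoid synthases the lowest, and Tbxas1 left that place when levels were rescaled to the coding transcript, where it stood above Hpgd. Alox5ap, the 5-lipoxygenase-activating protein, had a level of 249 and ranked 115 among the 28225 genes with a level above 0. Lta4h, the hydrolase that makes leukotriene B4, had a level of 95.3, and Alox5, the 5-lipoxygenase itself, had one of 75.1. Alox15 followed at 61.9. Below it lay Ptgs1 at 25.2, Ptgs2 at 25.2 and Hpgd at 9.38. Tbxas1, Ptges and Hpgds closed the order at 3.23, 2.64 and 0.794. The highest and lowest levels of the set were 314-fold apart. The 3 leukotriene genes held 76.6% of the summed deposited level of the 10, and Alox5ap alone held 45.5%. Both shares rest on the lengths used, since rescaled to the coding transcript Lta4h stood at 286 and Alox5ap at 282.

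**Figure D1:**
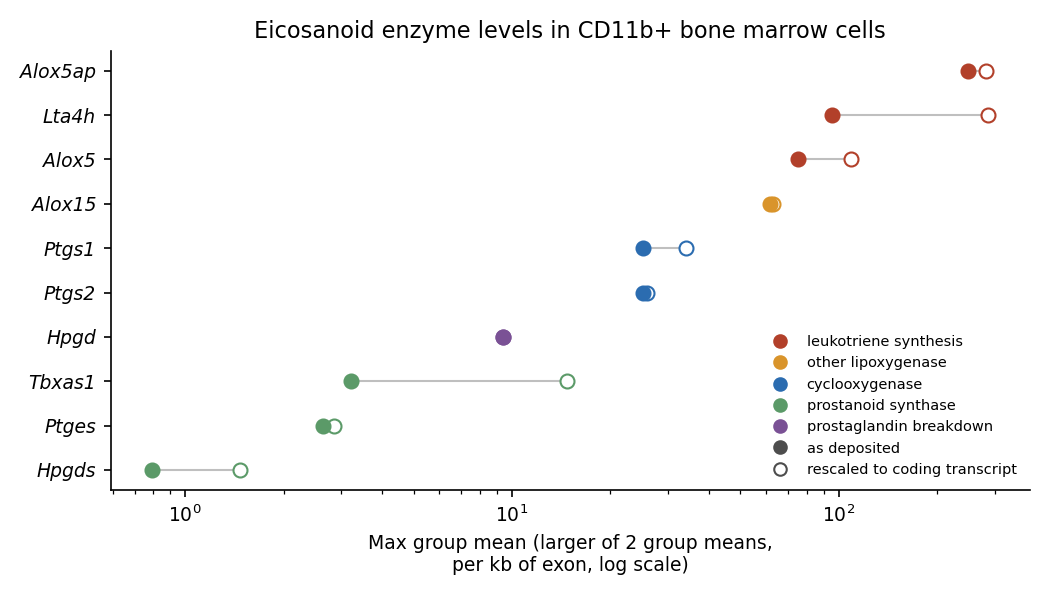
Level of each of the 10 enzymes on a log axis, in order of the deposited Max group mean; filled points are the values as deposited and open points the same values rescaled to the length of the coding transcript. The leukotriene genes lie at 75.1 to 249 as deposited and the prostanoid synthases at 0.794 to 3.23, and the open points of Lta4h and Tbxas1 lie farthest from their filled ones.

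Set against all genes, the enzymes lay mostly in the upper part of the range. Their median level was 25.2, while the median over the 28225 genes above 0 was 0.102 and that over the 18992 protein-coding genes above 0 was 0.568. Of the 10, 9 had a level of at least 1 and 6 of at least 10, where 32.7% and 10.7% of all genes above 0 did. The 10 are all protein-coding, and the shares over protein-coding genes alone were not counted. Hpgd, at 9.38, lay at percentile 83.8 of protein-coding genes and 88.8 of all genes above 0. Alox5ap lay at percentile 99.6, Lta4h at 98.9 and Alox5 at 98.6 of these genes. Hpgds was the only one of the 10 below a level of 1, at percentile 65.5, or 52.6 among protein-coding genes.

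**Figure D2:**
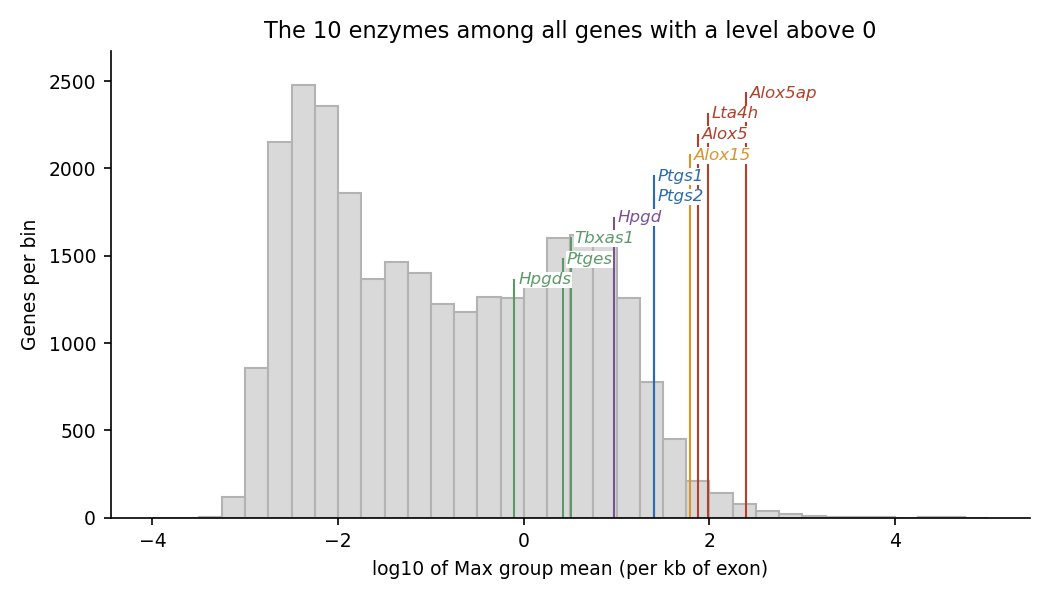
Number of genes per bin of the log10 level for all genes with a level above 0 (grey bars), with a line at the level of each of the 10 enzymes, coloured by role as in the plot of enzyme levels. The lines of 6 enzymes lie at a level of 10 or more, in the right-hand tail that holds 10.7% of the genes, and that of Hpgds lies left of 1.

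The scale of these values could be read from the table itself, because genes with very few reads leave steps. The level was multiplied by the exonic length that GENCODE vM21 gives for each gene. Of the 4348 genes whose product fell where 1 read in 1 library would put it, 4280 (98.4%) lay within 1e-06 of 1 of 8 values, as many as there were samples. The values were 0.004672 to 0.00592 for a level in units per kilobase. Levels of these genes were thus divided by exonic length, and the same was taken to hold for the rest. Genes can be set beside each other only as far as that length fits the transcripts present. Their levels may also come from different groups. If the values are also scaled to sequencing depth as an RPKM is, which no source used here states, the steps would equal 42229730 to 53510274 reads per library. Which step belongs to which sample was not assigned.

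**Figure D3:**
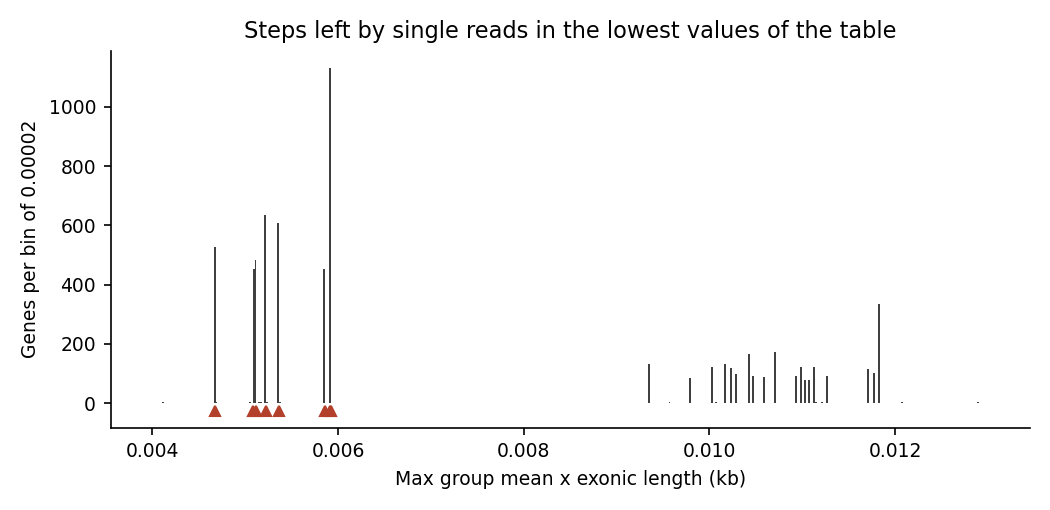
Genes per bin of the product of Max group mean and exonic length in kilobases, for the lowest values of the table, with triangles at the 8 steps found. The steps at 0.004672 to 0.00592 are what 1 read in 1 library adds to a mean over 4 libraries, and the 2 largest of them share a bin. The bars to the right of the gap start at 2 times the lowest step.

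At that depth none of the 10 enzymes was near the limit of detection. A single read would be worth at most 0.00417 in level for Alox5ap, which has the shortest exonic length, at 1420 bases. Hpgds, the lowest, would rest on 215 to 273 reads per library in the group with the larger mean, and Alox5ap on 14923 to 18910. These read numbers hold only as far as the length and the unit do, and they cover counting error and not the spread between mice.

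Ptgs1 and Ptgs2 encode the cyclooxygenases COX-1 and COX-2, of which COX-1 is present in many resting cells and COX-2 is induced by inflammatory stimuli. Both had a level of 25.2, and their ranks were 1213 and 1223. Ptgs1 lies on chromosome 2 (36230426 to 36252272, plus strand, GRCm38) with 11 exons in its coding transcript, and Ptgs2 on chromosome 1 (150100031 to 150108227, plus strand) with 10. The values depended on length, since the exonic length of Ptgs1, 3884 bases, includes other transcripts than the coding one of 2867 bases. With the levels rescaled to the coding transcript, Ptgs1 stood at 34.2 and Ptgs2 at 25.9, a ratio of 1.32.

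The sequences around the starts of Ptgs1 and Ptgs2 are shown together with that of Alox5, the 5-lipoxygenase at the head of the other branch. The windows run from 250 bases before to 50 bases after the RefSeq start on GRCm38.p6, in the direction of the gene, and in all 3 this start was also the end of the gene's region in the table. Capitals mark the motifs searched on both strands, which were the TATA box TATAAA, the cyclic AMP response element half-site TGACG, the E-box CACGTG, the GC box GGGCGG and the CCAAT box.
Ptgs1 (chr2:36230176-36230475, plus strand): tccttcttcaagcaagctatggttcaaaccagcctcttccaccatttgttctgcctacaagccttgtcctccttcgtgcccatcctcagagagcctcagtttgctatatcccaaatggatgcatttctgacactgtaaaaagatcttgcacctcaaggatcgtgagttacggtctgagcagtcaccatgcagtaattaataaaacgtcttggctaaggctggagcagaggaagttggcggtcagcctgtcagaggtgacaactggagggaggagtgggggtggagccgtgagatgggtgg
Ptgs2 (chr1:150099781-150100080, plus strand): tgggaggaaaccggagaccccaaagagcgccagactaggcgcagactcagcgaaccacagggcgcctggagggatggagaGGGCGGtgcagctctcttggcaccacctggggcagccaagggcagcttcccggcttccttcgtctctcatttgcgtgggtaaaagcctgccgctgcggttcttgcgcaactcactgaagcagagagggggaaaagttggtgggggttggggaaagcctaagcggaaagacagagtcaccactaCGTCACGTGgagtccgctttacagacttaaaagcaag
Alox5 (chr6:116461129-116461428, minus strand): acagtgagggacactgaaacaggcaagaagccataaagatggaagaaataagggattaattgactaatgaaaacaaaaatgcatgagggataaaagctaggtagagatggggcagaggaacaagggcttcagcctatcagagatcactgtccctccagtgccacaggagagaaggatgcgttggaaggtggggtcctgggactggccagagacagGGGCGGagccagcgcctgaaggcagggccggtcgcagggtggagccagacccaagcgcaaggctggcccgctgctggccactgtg

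The window of Ptgs1 held none of the motifs. That of Ptgs2 held a GC box with its first base at −170 from the start. Just past the start it held the half-site at 13, read on the opposite strand, and the E-box at 16, which overlap by 2 bases. The window of Alox5 held a GC box at −35. Among all 32851 RefSeq windows of this kind the GC box occurred in 35.7%, the half-site in 20.8%, the E-box in 7.15%, the TATA box in 13.6% and CCAAT in 37.4%. The Ptgs2 window had a GC content of 59.3% and 16 CG dinucleotides, that of Alox5 55.7% and 7, and that of Ptgs1 50.7% and 6, where the medians over all windows were 52.7% and 7. These letters describe the sequence, and binding was not measured. Of the windows not printed, that of Hpgd held a GC box at −50 and a TATA box at 4. That of Lta4h held CCAAT boxes at −107 and −60, and that of Ptges GC boxes at −53 and −42. That of Tbxas1 held overlapping TATA boxes at −13 and −11, and the window of Hpgds held none. In none of these unprinted windows was the RefSeq start also the end of the gene's listed region, so their positions are relative to a different start. RefSeq windows were at hand for 8 of the 10 members, and no windows were at hand for Alox5ap and Alox15.

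Of the 3 prostanoid synthases, none had a level above 3.23 as deposited. Tbxas1, thromboxane A synthase, lies on chromosome 6 (38875404 to 39084585, plus strand), and its region of 209 kb was the longest among the 10. Ptges, the inducible microsomal prostaglandin E synthase (chromosome 2, 30889471 to 30929863, minus strand), had a level 3.33 times that of Hpgds, the hematopoietic prostaglandin D synthase of mast cells and some macrophages and T cells (chromosome 6, 65117293 to 65144908, minus strand). The standing of Tbxas1 in this group depended on its length. GENCODE vM21 gives Tbxas1 9094 bases of exon, 4.57 times the 1990 bases of its coding transcript. That its deposited level was scaled by this length is inferred from genes with very few reads and was not checked for Tbxas1 itself. Rescaled to the coding transcript on that basis, its level was 14.7, which lay above Hpgd and at 5.18 times the rescaled level of Ptges. Hpgds rescaled to 1.47 and Ptges to 2.84. The rescaled value is exact only if every read came from the coding transcript, and which transcripts the reads came from was not tested.

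Hpgd, the dehydrogenase that inactivates prostaglandins, had a level of 9.38 at percentile 88.8 (chromosome 8, 56294585 to 56321043, plus strand). As deposited it lay between the cyclooxygenases and the synthases, at 2.91 times the level of Tbxas1, with Ptgs1 at 2.69 times that of Hpgd. Rescaled to the coding transcript the order of Hpgd and Tbxas1 turned, with Tbxas1 at 1.57 times Hpgd. It has 1 annotated transcript, so its level did not move on rescaling.

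In the leukotriene branch, Alox5ap (chromosome 5, 149264767 to 149288153, plus strand) stood at 3.32 times the level of Alox5 (chromosome 6, 116410077 to 116461178, minus strand) and at 2.61 times that of Lta4h (chromosome 10, 93453411 to 93484875, plus strand). The last of these ratios also rested on length. Lta4h has 6102 bases of exon over 8 annotated transcripts and a coding transcript of 2029 bases with 19 exons. Rescaled, Lta4h stood at 286 and Alox5ap at 282, with Alox5 at 109. All 3 genes remained above Alox15 and the prostanoid genes on either scale. Over the whole set, 4 of the 10 genes changed place in the order on rescaling, namely Lta4h with Alox5ap and Tbxas1 with Hpgd, and the fold between highest and lowest was 195 in place of 314.

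Alox15 encodes the 12/15-lipoxygenase, which in the mouse is known from resident macrophages and eosinophils. It lies on chromosome 11 (70344152 to 70352031, minus strand), which also holds 5 other lipoxygenase genes of the list, all with lower levels. Its level was 41.4 times that of Alox12e, the nearest of them, at 1.49. Alox12, the platelet-type 12-lipoxygenase, had 0.0324, and Alox8, Aloxe3 and Alox12b, which are known from skin, had 0.0361, 0.0184 and 0.00244. No window of 50 bases of the Alox15 transcripts was shared with a transcript of another gene.

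Shared sequence and overlapping genes were looked up for each enzyme. For 8 of the 10 enzymes no window of 50 bases was found in the transcripts of another gene, and for Tbxas1 and Hpgds the share was 0.515% and 0.393%. Regions of 4 enzymes overlapped 8 other genes of the table, 6 of them on the opposite strand. Of the 2 on the same strand, Gm45540 within Hpgd had a level of 0.158 and the small nucleolar RNA Gm23010 within Tbxas1 was listed at 0, and neither shared exonic bases with the enzyme. On the opposite strand, 3 genes did, namely Gm19719 with Alox5ap over 189 bases, Gm43621 with Ptgs1 over 148 bases and Gm42962 with Tbxas1 over 144 bases, at levels of 0.0179, 0.0215 and 0.0116. The most abundant overlapping gene was Hipk2, a kinase gene with a level of 14.1 that runs against Tbxas1. The regions overlap by 762 bases, and no base is annotated as exonic in both genes. The libraries kept the strand, but no source used here says whether the counting used it.

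The wider pathway was described with a list of 54 genes for phospholipases, other synthases, receptors and transporters, of which 53 were found in the table and 1, Dpep2, was not analysed here. Of the 53, 23 had a level of at least 1, where 32.7% of all genes above 0 did. The median of the 53 was 0.489, above that of all genes above 0 (0.102) and below that of protein-coding ones (0.568). The phospholipases were led by Pla2g7, the platelet-activating factor acetylhydrolase, at 39.0 and Pla2g15, a lysosomal phospholipase, at 7.79. Pla2g4a, the cytosolic phospholipase A2 that releases arachidonic acid, had a level of 5.06.

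Among the other synthases, Ptges3, the cytosolic prostaglandin E synthase that is also the HSP90 cochaperone p23, had a level of 23.4, 8.86 times that of Ptges. Ptgr1, a reductase that inactivates prostaglandins and leukotriene B4, stood at 11.5 and Ptgr2 at 3.25. Of the synthases of PGD2 and prostacyclin outside the 10 enzymes, Ptgds had a level of 0.00633, at percentile 21.7 of the genes above 0, and Ptgis one of 0.00198, at percentile 4.59. In the cysteinyl leukotriene branch, Ltc4s, the leukotriene C4 synthase of mast cells and eosinophils, had a level of 0.275, and Mgst2, a microsomal transferase that can also make leukotriene C4, had 19.7. Ggt5, which trims leukotriene C4, had 5.68, and Cotl1, an actin-binding partner of 5-lipoxygenase, had 337, the highest level of the list.

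Among the receptors for the products, Ltb4r1, the high-affinity leukotriene B4 receptor BLT1, had a level of 101, and Ltb4r2 had 0.344. Lta4h, the enzyme that makes leukotriene B4, had 95.3 as deposited and 286 rescaled to its coding transcript. The receptors were not rescaled. Fpr2, a receptor of formyl peptides and lipoxin A4, had 151. Of the prostanoid receptors, 3 reached a level of 1, namely Ptgir for prostacyclin at 13.6, and Ptger4 and Ptger2 for PGE2 at 4.15 and 2.77. Tbxa2r, the thromboxane receptor, had 0.0671, and the PGD2 receptors Ptgdr and Ptgdr2 had 0.528 and 0.176. The cysteinyl leukotriene receptors Cysltr1 and Cysltr2 had 0.489 and 0.0736. Among the transporters, Abcc4, which exports prostaglandins, led at 9.88, followed by Slco3a1 at 3.28 and Abcc1, an exporter of leukotriene C4, at 2.07, and Slco2a1, the prostaglandin uptake transporter, had 0.0126.

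**Figure D4:**
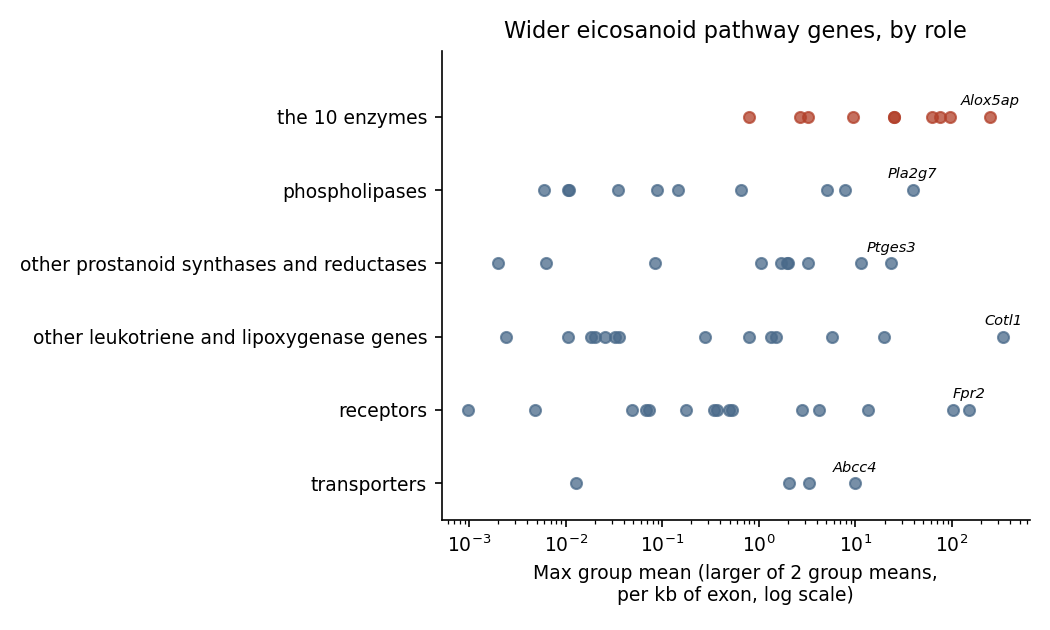
Levels on a log axis of the 10 enzymes (top row, red) and of the 53 wider pathway genes found in the table, 1 point per gene in rows by role, with the highest gene of each row named. The 10 enzymes span 0.794 to 249, and in the rows below them single genes such as Cotl1 at 337, Fpr2 at 151 and Pla2g7 at 39.0 stand to the right of a majority of lower ones.

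The labelled cell fraction was checked against markers of the cells it should and should not hold. All 13 neutrophil genes had a level of at least 10, from 143 for Mpo to 42151 for S100a9, and so had all 6 monocyte genes, from 12.2 for Cx3cr1 to 189 for Ly6c2, and all 8 macrophage genes, from 10.1 for Mrc1 to 62.6 for Hmox1. The gene of CD11b itself was not analysed here, and Itgb2, its partner chain CD18, had a level of 439. The fraction also held eosinophil RNA, with all 9 genes at 1.98 or more and Prg2, the major basic protein, at 285. Of the 9 basophil and mast cell genes, Tpsb2 was listed at 0 and 3 reached a level of 1. These were Kit at 5.28, Prss34 at 4.86 and Mcpt8 at 2.78. Of the 8 megakaryocyte and platelet genes, 1 reached that level, Gp1bb at 1.89, and Pf4 had 0.603. The highest B cell gene was Cd79b at 3.54, the highest T cell gene Cd3d at 1.97 and the highest NK cell gene Ncr1 at 0.560, and the hemoglobin gene Hbb-bs stood at 57.6.

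Several of the 10 enzymes are known from more than 1 of these cell types. Each range below is set by its lowest and highest gene alone, so lying within it shows no likeness to the list. The level of Alox15, 61.9, lay within the range of the 9 eosinophil genes (1.98 to 285, median 22.3) and of the 8 macrophage genes (10.1 to 62.6, median 26.2). Of the macrophage genes only Hmox1 lay above it, and the next highest, Cd68, had 38.7. Alox15 also lay within the range of the 6 monocyte genes (12.2 to 189). There only Ly6c2 lay above it, and the next highest, Fn1, had 53.9. The level of Tbxas1, 3.23 as deposited, lay above the range of the 8 megakaryocyte and platelet genes (0.0226 to 1.89, median 0.487). It lay within the ranges of the eosinophil, basophil and mast cell, B cell and erythroid genes. Its rescaled level of 14.7 cannot be set beside these ranges, because the marker genes were not rescaled. The level of Hpgds, 0.794, lay within the range of the 9 basophil and mast cell genes (0 to 5.28, median 0.619). It also lay within the ranges of the megakaryocyte and platelet (0.0226 to 1.89), B cell (0.264 to 3.54), T cell (0.0518 to 1.97) and erythroid genes (0.211 to 57.6). Alox5ap at 249 lay within the range of the eosinophil genes only because of Prg2 at 285. The next highest eosinophil gene, Ear1, had 194, and the median was 22.3. Alox5ap also lay in the lower part of the range of the 13 neutrophil genes (143 to 42151, median 812). The part that each cell type had in these levels was not tested, and in bulk RNA a smaller number of cells of a type and less RNA per cell cannot be told apart.

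**Figure D5:**
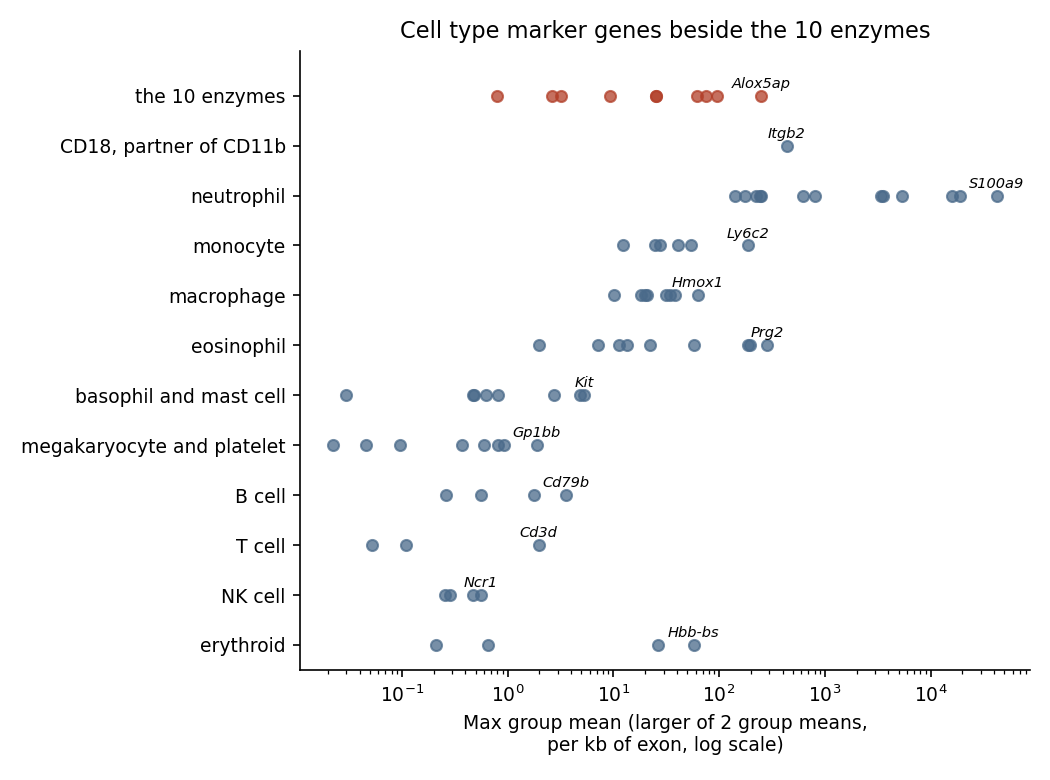
Levels on a log axis of the 10 enzymes (top row, red) and of marker genes of 10 cell types and of CD18, 1 point per gene, with the highest gene of each row named; Tpsb2, listed at 0, is left out. Neutrophil genes lie at 143 to 42151 and eosinophil genes at 1.98 to 285, while megakaryocyte and platelet genes end at 1.89.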

How the data were processed

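The authors prepared stranded libraries of total RNA after depletion of ribosomal RNA and sequenced both ends of the fragments on an Illumina instrument. The submitters' processing notes name GRCm38 and edgeR, and the group test was a negative binomial model in the manner of edgeR. No source used here gives the aligner or the annotation release. The deposited table of 41018 genes holds, beside names and regions, the Max group mean and 5 columns of the authors' own comparison, namely a log2 fold change, a linear fold change, a p-value and its adjustments by false discovery rate and Bonferroni. Those 5 columns and the separate list of genes selected by them were not used, so that PC-EV-educated and PBS mice were not compared.

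Levels were taken as deposited, with 12793 genes at 0. Percentiles are the share of genes above 0 with a lower level. Exonic lengths joined all exons of a gene in GENCODE vM21 (GRCm38), where 40934 of the table's IDs were found and 39124 had an identical start and end, all 10 members included. A step was a product of level and length shared by at least 100 genes; the search was tested on simulated data. Coding transcripts were those with the longest coding sequence. Promoter windows were from RefSeq (GRCm38.p6). Proteins were not analysed here. Python 3.11.15, pandas 2.3.3, numpy 2.4.6 and matplotlib 3.10.9 were used.

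The members and lists were chosen with earlier results of these data known. Named are all members, the 3 highest wider pathway genes of each role, product receptors with a level of at least 1, and the highest marker of each list and those at 0; other genes named were chosen after their values were seen. Prxl2b was matched by its older symbol. The alternatives tried were other reference sets for the percentiles, other level thresholds and, chosen after seeing the data, the length of the coding transcript.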

Additional observations from a re-analysis of the deposited data

How the results depend on the processing

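All 10 enzymes lay above the median of the genes above 0, of all 41018 genes and of protein-coding genes, and 9 of 10 did among genes with a level of at least 0.1, where Hpgds was at percentile 31.3. The median percentile of the 10 was 95.7 among genes above 0 and 91.4 to 97.0 in the other sets. With a threshold of 0.1 or 10 in place of 1, 10 or 6 of the enzymes passed in place of 9, and 32 or 8 of the wider pathway genes in place of 23. Of the 28225 genes above 0, 14153 had a level of at least 0.1, and 10.7% one of at least 10. Rescaling to the coding transcript was chosen after seeing the data; with it all 10 enzymes had a level of at least 1, from 1.47 to 286. The exonic length decided 3 levels by over 1.5 times, those of Tbxas1 (14.7 in place of 3.23), Lta4h (286 in place of 95.3) and Hpgds (1.47 in place of 0.794).

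No paired analysis was possible because the values analysed are group means without values of single samples, and for the same reason leaving out replicates and tests between the groups were not run. The depth per sample is known only as far as the steps show it, and a level without its spread limits every statement on order.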
